A study of Homo sapiens with 28 samples.

Results

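The genes of the Hippo pathway and the target genes of the TEAD transcription factors were followed across 28 RNA-seq libraries of AN3CA, a human endometrial carcinoma cell line. The 36 members were taken from a list of names, which was chosen with earlier results of these data known. They comprise 21 pathway parts and 15 targets, out of 26346 gene symbols counted. The pathway parts are 2 coactivators, 4 TEAD factors, 7 genes of the kinase core, 3 upstream regulators and 5 genes whose proteins restrain YAP or TEAD by binding. Enough reads for a test were present for 33 members, among them all 21 parts and 12 of the 15 targets. The targets left out were F3, with 2 reads in all 28 libraries together, DLC1 with 9 and RBMS3 with 35.

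All groups share the AN3CA background and no treatment is named for any of them. By their labels the groups differ by the expressed construct, and the libraries also fall into technical sets described below. Empty vector was the control (4 libraries), and each of the 12 constructs has 2 libraries. The ARID1A constructs are the wild type (WT), the CBR truncation, the delIDR1 truncation, the DBDmut construct mutated in the ARID domain, a hybrid with the disordered region of DDX4 (DDX4 hybrid), the AQG scramble (AQGscram) and 42YS. The ARID1B constructs are the wild type, M2 (S320_G327del), A457_G461del, Block13del and Block9del. ARID1A and ARID1B are alternative subunits of the cBAF chromatin remodelling complex, and the series title names condensation of cBAF and transcriptional activation as its subject. The labels do not give the vector's promoter, whether a line is a clone, or whether the libraries of a group came from separate cultures, so p-values here measure only the spread between libraries.

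In the Hippo pathway the kinases STK3 and STK4 (MST2 and MST1), with the scaffold SAV1, activate LATS1 and LATS2 with their MOB1 partners. LATS kinases phosphorylate the coactivators YAP1 and WWTR1 (TAZ), which are then held in the cytoplasm or degraded. Unphosphorylated YAP1 and WWTR1 enter the nucleus, bind TEAD1 to TEAD4 on DNA and raise transcription of genes such as CYR61, CTGF and ANKRD1. Control of YAP and TAZ is mostly at the protein level, which these RNA counts do not measure.

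TEAD factors bind the letters CATTCC or, read on the other strand, GGAATG. The 250 bases upstream of the annotated start are shown for the 3 targets with the smallest p-values in ARID1A WT that have an entry, and for CTGF, because the results below turn on these genes. Sequences are from RefSeq (GRCh38.p14), 5′ to 3′ on the gene's own strand, and capitals mark CATTCC or GGAATG. The windows are chr10:90921088-90921337 (minus strand) for ANKRD1, chr6:131951373-131951622 (minus strand) for CTGF, chr19:41218973-41219222 (plus strand) for AXL and chr11:35618210-35618459 (plus strand) for FJX1.
ANKRD1: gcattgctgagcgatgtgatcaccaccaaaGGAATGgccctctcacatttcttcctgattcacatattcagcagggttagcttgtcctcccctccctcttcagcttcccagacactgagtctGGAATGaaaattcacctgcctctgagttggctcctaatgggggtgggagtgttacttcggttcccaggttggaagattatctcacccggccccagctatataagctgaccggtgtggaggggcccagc
CTGF: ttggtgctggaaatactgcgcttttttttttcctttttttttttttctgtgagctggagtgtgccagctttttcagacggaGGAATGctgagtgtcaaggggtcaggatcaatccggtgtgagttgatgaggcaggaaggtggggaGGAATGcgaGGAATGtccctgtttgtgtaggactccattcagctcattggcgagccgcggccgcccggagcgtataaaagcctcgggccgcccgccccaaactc
AXL: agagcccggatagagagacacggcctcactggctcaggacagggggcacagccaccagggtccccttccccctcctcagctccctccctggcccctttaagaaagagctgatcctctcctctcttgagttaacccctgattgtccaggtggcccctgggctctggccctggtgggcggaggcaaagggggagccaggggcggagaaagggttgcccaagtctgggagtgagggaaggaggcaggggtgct
FJX1: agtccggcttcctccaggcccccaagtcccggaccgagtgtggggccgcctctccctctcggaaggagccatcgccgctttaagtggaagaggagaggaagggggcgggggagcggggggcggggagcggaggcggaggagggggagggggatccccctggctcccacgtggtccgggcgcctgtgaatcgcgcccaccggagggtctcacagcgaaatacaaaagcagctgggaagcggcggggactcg
The ANKRD1 window holds GGAATG at 220 and 128 bases upstream of the start, and the CTGF window holds it at 169, 104 and 95 bases. The windows shown for AXL and FJX1 do not hold these letters, although another annotated start of AXL has a match. Of the 10 targets with an entry, 5 had a match in at least 1 window (AJUBA, ANKRD1, AXL, CTGF and NUAK2), which is 41.7% of their 12 windows. The share was 10.7% of the 28 windows of the pathway parts and 11.9% of all 35116 windows. The AP-1 motif TGANTCA, which does not overlap these matches, was in 16.7% of the target windows and 6.57% of all windows. A match is a run of letters and was not tested as a binding site.

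Libraries held 16.6 to 27.9 M reads assigned to genes. The share of those reads on the expected strand divides the libraries into 3 sets, which are treated here as technical sets of unknown origin. Set 1 holds empty vector replicates 1 and 2 with ARID1A WT, CBR, delIDR1 and DBDmut (84.5% to 87.8%). Set 2 holds empty vector replicates 3 and 4 with the DDX4 hybrid, ARID1B WT and M2 (98.1% to 98.6%). Set 3 holds the other 5 constructs and no empty vector (96.7% to 97.9%). The empty vector pairs differed in 58.5% of the 14220 genes tested, with 28.8% higher and 29.7% lower in replicates 3 and 4. Of the 33 members 22 differed (7 targets and 15 parts, 19 of the 22 lower in replicates 3 and 4). CTGF was at 15.1 and 15.8 CPM (counts scaled by library size with TMM factors) in replicates 1 and 2 and at 1.37 and 1.45 CPM in replicates 3 and 4, and CYR61 at 57.4 and 55.3 against 13.9 and 14.8 CPM. Immediate early genes moved with this split, with 13 of 14 lower and 1 higher in replicates 3 and 4, and their part was not tested. Each construct of sets 1 and 2 was therefore set against its own pair. A gene of set 3 was called only where it differed in the same direction from each pair.

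ARID1A RNA was 732.8 ± 43.9 CPM (SD, n = 2) in ARID1A WT, 1017 ± 26.1 in CBR, 589 ± 11.2 in delIDR1, 665.1 ± 40.7 in DBDmut and 522.6 ± 8.10 in the DDX4 hybrid, against 288.5 ± 12.5 (n = 4) in empty vector. It was 373.9 ± 1.32 CPM in 42YS, and 284.3 and 209.9 CPM in the AQGscram libraries, which were not above the empty vector mean. ARID1B RNA was 3597 ± 225 CPM in ARID1B WT, 4250 ± 96.2 in M2, 2236 ± 32.9 in A457_G461del, 882.9 ± 7.14 in Block13del and 343.5 ± 0.277 in Block9del, against 98.03 ± 6.54 (n = 4) in empty vector. DDX4 stood at 46.0 CPM in the hybrid and at no more than 0.190 CPM as a mean in any other group. The counts on ARID1A and ARID1B thus differed between groups. They include the cells' own transcript, as in empty vector. A truncated, hybrid, deleted or scrambled construct can also lack or alter part of the counted sequence. The level of construct RNA was therefore not measured by itself, and the part of these counts in the results was not tested. Of the endometrial markers, PAX8, ESR1, PGR, FOXA2 and SOX17 stayed at or below 0.234 CPM. HOXA10 (5.83 to 22.7 CPM), HOXA11 (4.44 to 16.2 CPM) and MSX1 (4.80 to 13.3 CPM) were present, and EMX2 ranged from 0.165 to 2.58 CPM. Of the epithelial markers, EPCAM stayed at or below 0.809 CPM, while KRT18, the highest of that list, was at 9.89 to 83.2 CPM. VIM, a mesenchymal filament gene, was at 2176 to 6614 CPM. Summed markers of leukocytes and of endothelium stayed under 1 CPM in every library, with 0 of 5 and 0 of 4 genes above that level.

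The TEAD targets were higher with wild-type ARID1A. All 12 tested targets rose against the empty vector pair, where 60.7% of all genes were called in either direction and 29.9% were higher. At least 2-fold rises were seen for 8 of 12 targets, against 10% of all genes. These counts include NT5E, and those of the parts include AMOTL1, which both had 0 reads in every empty vector library. Both genes entered the test only through construct libraries. Against the empty vector they could therefore be called only as higher, here and in the counts below. The median log2 fold change of the targets was 1.65, and over all genes tested it was -0.03. The 21 pathway parts did not move in 1 direction, with 10 higher, 6 lower (30.8% of all genes) and 5 not called, and a median of 0.09. Marker genes moved as well: of 9 tested epithelial markers 6 rose and 1 fell, and their summed level was 62.9 to 64.5 CPM in ARID1A WT against 19.99 to 20.09 CPM in the pair, while EPCAM and CLDN3 stayed under 1 CPM. Of 8 tested mesenchymal markers 6 rose and 1 fell (summed level 8512 to 8598 against 6959 to 7307 CPM). The mesenchymal sums, here and below, are mostly VIM and COL1A2, and KRT18 alone was at 46 CPM of the epithelial sum in ARID1A WT. Of 4 tested endometrial markers 2 rose and 2 fell. The part of these shifts in the target levels was not tested. In bulk RNA, a change in the number of expressing cells cannot be told apart from a change in RNA per cell.

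ANKRD1, which encodes a nuclear ankyrin repeat protein, gave the largest fold change among targets with reads in every library. It was at 13.9 and 12.6 CPM in ARID1A WT and at 0.272 and 0.450 CPM in the control pair, a log2 fold change of 5.17 ± 0.17 (SE, adjusted p = 3.98e-19). The levels did not overlap and the control was close to 0. AXL, a receptor tyrosine kinase, was at 47.1 and 49.3 against 3.40 and 2.79 CPM (3.96 ± 0.10, adjusted p = 1.83e-21). CYR61, a secreted matricellular protein gene, was at 168.9 and 170.2 against 57.4 and 55.3 CPM (1.59 ± 0.05, adjusted p = 1.74e-19). In both genes the libraries of a group lay much closer to each other than to the other group. CRIM1, which encodes a membrane protein that binds BMP ligands, was at 221.1 and 223.7 against 69.0 and 66.8 CPM (1.71 ± 0.06, adjusted p = 5.45e-18). FJX1, the homologue of the fly gene four-jointed, was at 28.98 and 29.05 against 8.25 and 8.05 CPM (1.83 ± 0.08, adjusted p = 1.86e-16). CTGF, the secreted relative of CYR61, was at 32.5 and 38.5 against 15.1 and 15.8 CPM, a smaller rise (1.20 ± 0.08, adjusted p = 2.63e-12).

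NT5E, which encodes the ecto-nucleotidase CD73, had 0 reads in every empty vector library and 63 reads in the ARID1A WT libraries together. Set against a floor of 3 reads over the control pair, it was at least 24.2-fold higher, a bound that covers counting error only. NUAK2, a kinase gene related to AMPK, rose by 2.19 ± 0.25 on the log2 scale from 0.971 to 4.41 CPM (group means). The remaining 4 targets rose by less: ARHGEF17 by 0.74, the ARF GTPase activator ASAP1 by 0.60, the LIM protein gene AJUBA by 0.48 and the membrane repair gene MYOF by 0.45.

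**Figure D1:**
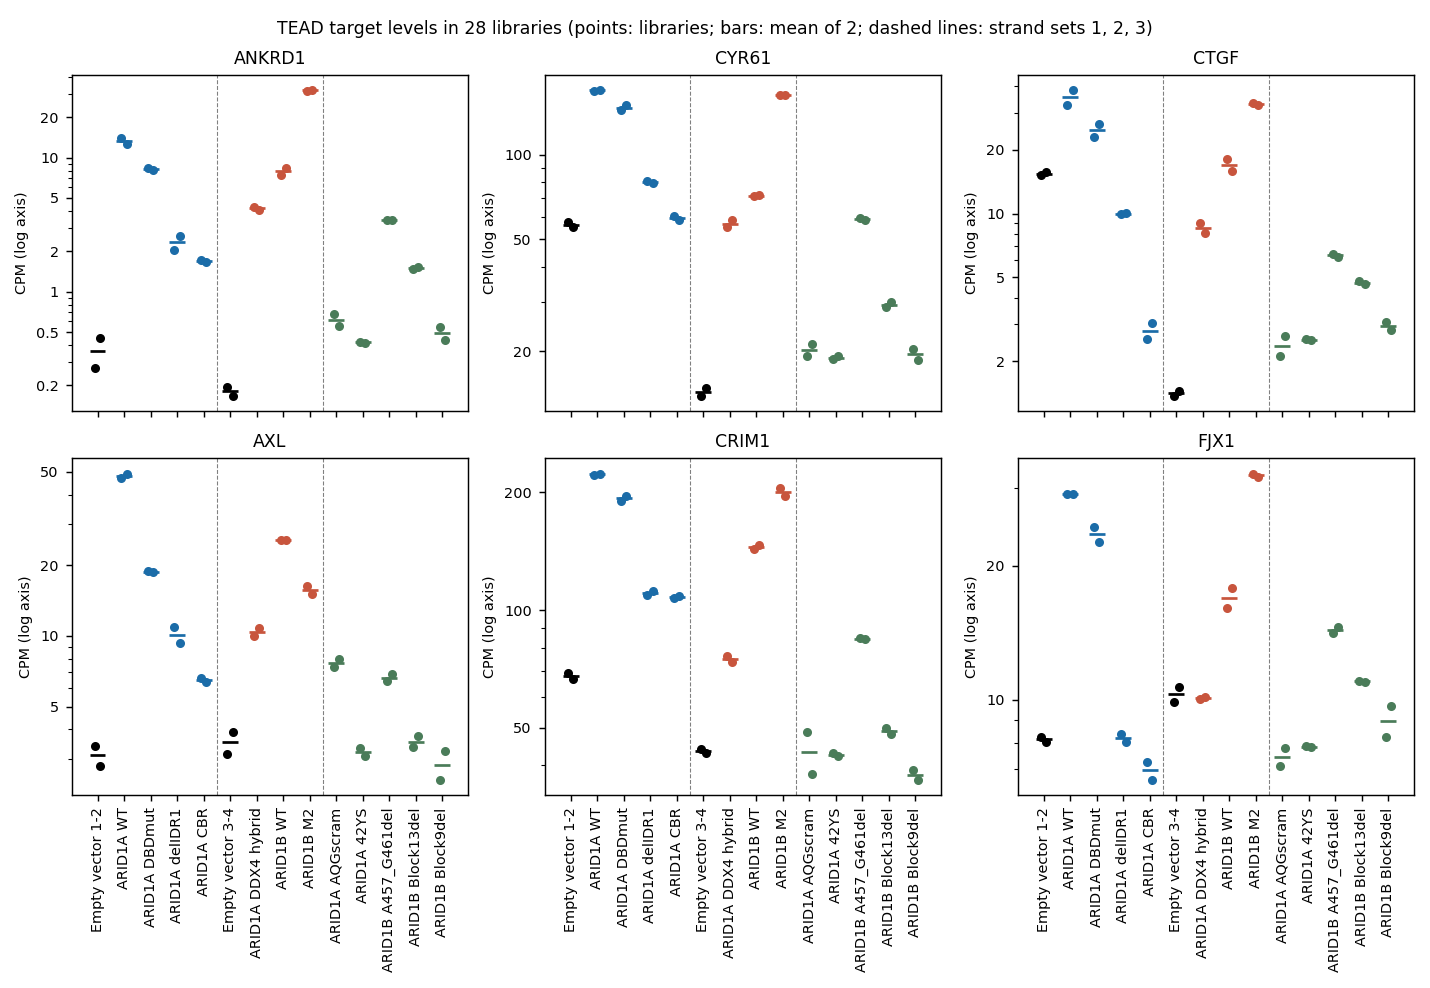
Levels of 6 TEAD targets in CPM (log axis) in each library, with groups ordered by strand set and the empty vector pairs in black; bars are means of 2 libraries. ARID1A WT and M2 stand highest within their sets for ANKRD1, CYR61 and CTGF, and the empty vector pairs stand apart from each other for CYR61 and CTGF.

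The mutant of the ARID domain raised as many targets as ARID1A WT, and the truncations raised fewer. With DBDmut 12 of 12 targets rose (59% of all genes called, 30% higher and 29.1% lower), 7 of them at least 2-fold (7.72% of all genes). The target median was 1.45. ANKRD1 was at 8.31 and 8.07 CPM, CYR61 at 143.7 and 150.2 CPM and AXL at 18.9 and 18.6 CPM, all above the control pair. With delIDR1, 7 targets rose and 2 fell (56.3% of all genes called, 25.2% higher and 31.1% lower), and with CBR 6 rose and 1 fell (59.6% called, 28.7% higher and 30.8% lower). At least 2-fold rises were left for 3 targets in each truncation, ANKRD1, AXL and NUAK2, against 7.49% and 7.14% of all genes. Without NT5E, which had no more than 2 reads in either truncation, the target medians were 0.50 in delIDR1 and 0.28 in CBR.

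CTGF was below its own control in both truncations. It was at 2.55 and 3.03 CPM in CBR, below its own control pair at 15.1 and 15.8 CPM (-2.47 ± 0.13, adjusted p = 9.8e-15). In delIDR1 it was at 9.91 and 10.1 CPM, also below the pair (-0.63 ± 0.10, adjusted p = 5.53e-06). The fall in delIDR1, and that of MYOF (-0.24 ± 0.06), depends on the control: against all 4 empty vector libraries as 1 group the log2 fold changes were 0.18 and 0.13. Immediate early genes, which respond to serum and signalling, were lower in the same libraries, 13 of 14 in CBR (30.8% of all genes lower) and 12 of 14 in delIDR1 (31.1%), and their part was not tested. CYR61 was at 60.5 and 58.7 CPM in CBR, a difference from the pair that did not pass the test (0.08 ± 0.05, adjusted p = 0.199), and at 80.7 and 79.5 CPM in delIDR1 (0.51 ± 0.05, adjusted p = 6.21e-09). FJX1, at 7.26 and 6.62 CPM in CBR and 8.38 and 8.04 CPM in delIDR1, was called in neither. ANKRD1 stayed above its control at 1.72 and 1.68 CPM in CBR and 2.05 and 2.61 CPM in delIDR1, with log2 fold changes of 2.22 and 2.67.

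Direct comparison with ARID1A WT gave the size of these losses. The target counts include NT5E, which passed the read filter only through wild-type libraries. That filter favoured a call of NT5E as lower than wild type. In CBR all 12 targets were lower than in ARID1A WT (62.5% of all genes called, 29.4% higher and 33.1% lower), 7 of them at least 2-fold (7.55% of all genes). CTGF was lower by a log2 fold change of -3.67 ± 0.11, ANKRD1 by -2.95 ± 0.13, AXL by -2.90 ± 0.09 and FJX1 by -2.06 ± 0.08. In delIDR1 10 of 12 were lower (57.8% called, 25.5% higher and 32.2% lower), 7 at least 2-fold (5.19% of all genes), with ANKRD1 at -2.50 ± 0.12 and CTGF at -1.83 ± 0.09. AJUBA and NUAK2 did not pass the test there. In DBDmut 9 of 12 were lower (19.1% called, 8.33% higher and 10.7% lower), but only AXL (-1.36 ± 0.08) and NT5E at least 2-fold (2.93% of all genes), and the median difference was -0.26. The CBR libraries had the highest ARID1A CPM of all groups, a count that includes the cells' own transcript. Summed mesenchymal markers were at 4964 to 5034 CPM in the truncations against 8512 to 8598 CPM in ARID1A WT and 6959 to 7307 CPM in the control pair. Summed epithelial markers were at 29.04 to 33.4 CPM in CBR, 39.8 to 41.5 CPM in delIDR1 and 62.9 to 64.5 CPM in ARID1A WT, and the part of either list was not tested. The truncations were not compared with each other by a test.

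**Figure D2:**
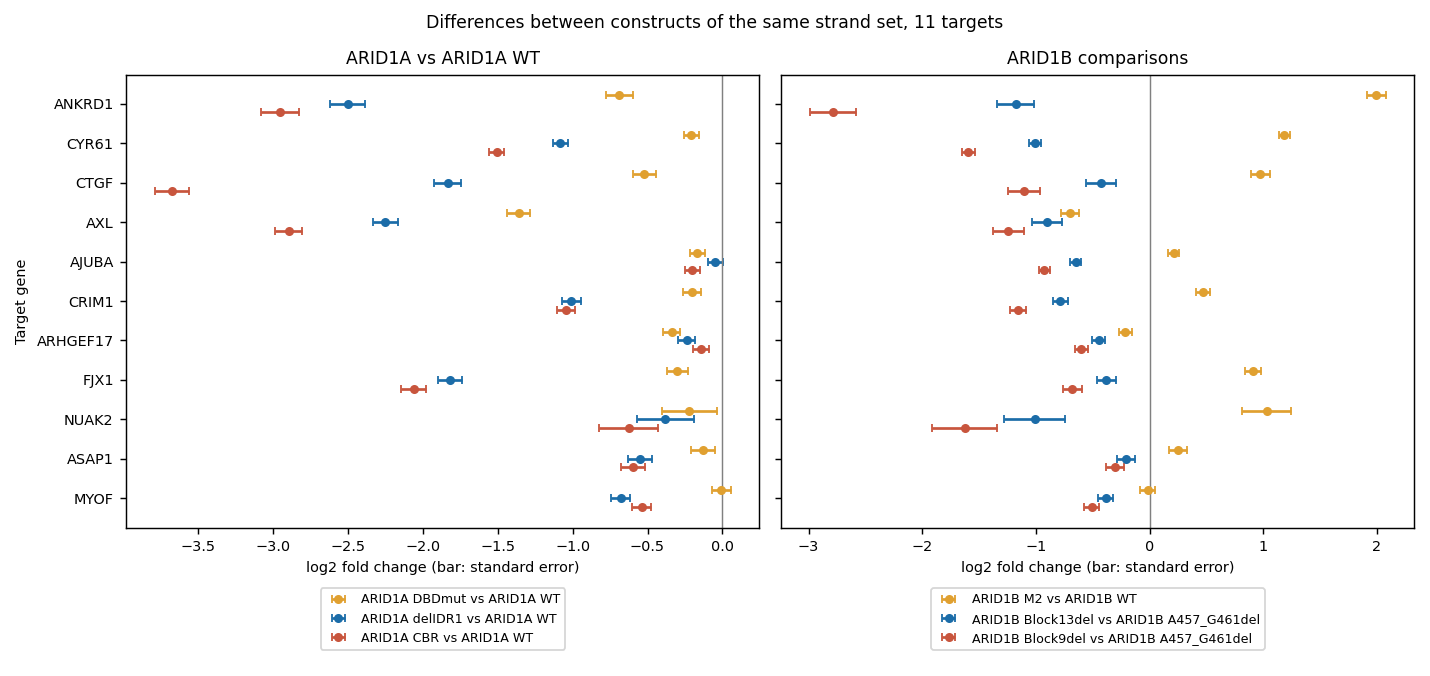
Log2 fold changes with standard errors for the 11 targets other than NT5E, for ARID1A mutants against ARID1A WT (left) and for ARID1B constructs against each other (right). Points of CBR and delIDR1 lie left of -1.5 on the log2 axis for CTGF, ANKRD1, AXL and FJX1, M2 lies right of 0 for 8 of 11 targets, and Block9del lies left of Block13del.

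The DDX4 hybrid raised a smaller set of targets. With its own pair as control 10 of 12 rose and none fell (50.5% of all genes called, 26.1% higher and 24.4% lower), 5 at least 2-fold (5.04%). With the 4 empty vector libraries as 1 control, 6 targets were called. CYR61 was at 55.4 and 58.4 CPM against 13.9 and 14.8 CPM (1.99 ± 0.06, adjusted p = 8.99e-19), and CTGF at 8.99 and 8.13 against 1.37 and 1.45 CPM (2.59 ± 0.18, adjusted p = 3.8e-12), a rise that became -0.04 with the 4 as 1 control. FJX1 was unlike in the hybrid and ARID1A WT: at 10.1 and 10.2 CPM it did not pass the test against its pair at 9.88 and 10.7 CPM. The difference between the hybrid's response and that of ARID1A WT was tested with each response taken against its own pair (50.5% of all genes called, 25.3% higher and 25.2% lower). It was lower in the hybrid for AXL (-2.41 ± 0.19), FJX1 (-1.86 ± 0.12), CRIM1, ARHGEF17 and ASAP1, and higher for CTGF (1.39 ± 0.21) and CYR61 (0.40 ± 0.08). The higher CTGF and CYR61 responses turned to -2.05 and -1.57 with the 4 empty vector libraries as 1 control. That single control cancels out of the difference, which then sets constructs of different strand sets against each other directly.

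ARID1B WT raised all 12 tested targets (52% of all genes called, 23.6% higher), 8 of them at least 2-fold (7.26%), with a median of 1.70. ANKRD1 was at 7.47 and 8.35 CPM against 0.196 and 0.167 CPM (5.42 ± 0.24, adjusted p = 4.79e-16). CTGF was at 18.0 and 15.9 against 1.37 and 1.45 CPM (3.57 ± 0.16, adjusted p = 4.1e-16). CYR61 was at 71.1 and 71.9 against 13.9 and 14.8 CPM (2.32 ± 0.06, adjusted p = 1.9e-20). Groups did not overlap in any of these genes. AXL was at 25.6 and 25.7 against 3.14 and 3.90 CPM (2.85 ± 0.12, adjusted p = 6.37e-17), and NT5E was at least 12.4-fold higher. The summed epithelial markers were at 61.7 to 64.9 CPM in ARID1B WT against 14.3 to 15.0 CPM in the pair (5 of 9 tested rose and none fell), and their part was not tested. Between ARID1A WT and ARID1B WT, 6 of 12 target responses differed (41.6% of all genes called, 22.9% higher and 18.7% lower). The response of ARID1A WT was larger for FJX1 (1.11 ± 0.12) and AXL (1.11 ± 0.19), and smaller for CTGF (-2.37 ± 0.20), MYOF (-0.74 ± 0.09), CYR61 (-0.73 ± 0.08) and AJUBA (-0.50 ± 0.07). The latter 4 turned positive with the 4 empty vector libraries as 1 control, at 1.07, 0.14, 1.25 and 0.26. As for the hybrid, that control cancels out, so these values are direct differences between constructs of different strand sets.

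M2, with residues S320 to G327 deleted according to its label, gave a larger response than ARID1B WT. All 12 targets rose against the pair (53.1% of all genes called, 25.4% higher), 10 at least 2-fold (7.86%), and the median was 1.89 with NT5E at its bound. ANKRD1 was at 31.3 and 32.0 CPM, CTGF at 33.5 and 32.8 CPM and CYR61 at 162.8 and 162.9 CPM, or 7.41 ± 0.18, 4.54 ± 0.14 and 3.50 ± 0.06 on the log2 scale above the pair. Directly against ARID1B WT, 8 targets were higher and 3 lower (34.4% of all genes called, 19.1% higher and 15.3% lower). ANKRD1 was higher by 2.0 ± 0.08, CYR61 by 1.19 ± 0.05, NUAK2 by 1.03 ± 0.21, CTGF by 0.97 ± 0.08 and FJX1 by 0.91 ± 0.07. AXL, at 16.4 and 15.1 CPM in M2, was lower by -0.70 ± 0.08, and so were NT5E, with 9 reads against 44, and ARHGEF17 (-0.21 ± 0.05). NT5E passed the read filter only through wild-type libraries, which favoured its call as lower. MYOF was not called (-0.02 ± 0.06). ARID1B RNA was also higher in M2 than in ARID1B WT, and so were the summed epithelial markers (95.7 to 100.8 CPM), and the part of either was not tested.

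**Figure D3:**
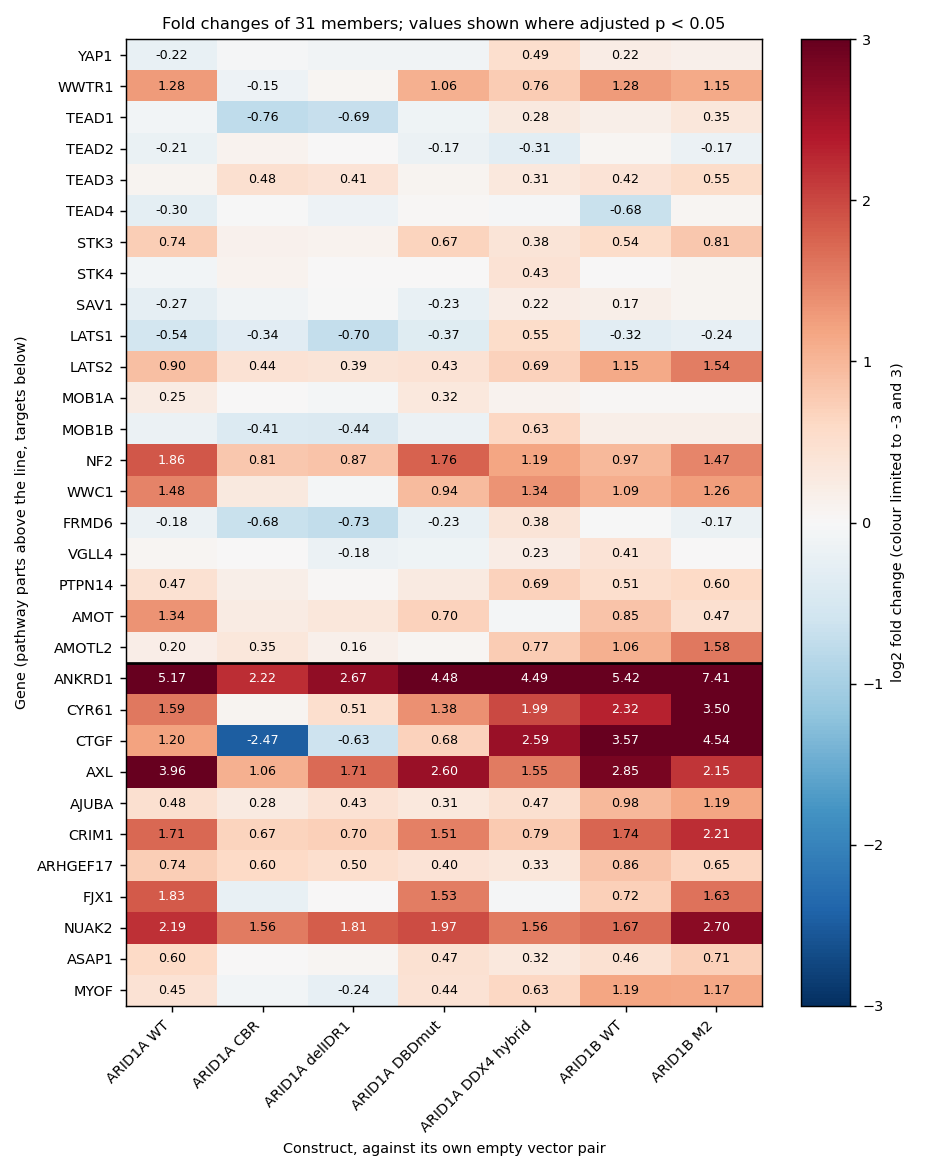
Log2 fold changes of 31 members (33 tested less NT5E and AMOTL1, which had 0 reads in the empty vector) in 7 constructs against their own empty vector pair, with pathway parts above the line and targets below; values are printed where the adjusted p is under 0.05. Red covers the targets in ARID1A WT, DBDmut, ARID1B WT and M2, and CTGF is blue in CBR and delIDR1.

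The constructs of set 3 divided by target response. A457_G461del raised 8 of 12 targets against each pair and lowered none (26.1% of all genes called, 14.1% higher). ANKRD1 was at 3.42 and 3.41 CPM there, 3.22 ± 0.23 above replicates 1 and 2 of the empty vector and 4.20 ± 0.29 above replicates 3 and 4 on the log2 scale. The others were AXL, NUAK2, FJX1, CRIM1, AJUBA, ASAP1 and NT5E, the last with 8 reads and at least 1.77-fold higher. Of the NT5E reads, 1 was in replicate 1 and 7 were in replicate 2. Leaving out 1 library gave 7 to 8 called targets. CYR61, at 59.5 and 58.4 CPM, was close to replicates 1 and 2 of the empty vector (0.06) and above replicates 3 and 4 (2.04), and CTGF, at 6.44 and 6.23 CPM, lay between the pairs, so neither was called. Block13del raised ANKRD1 (1.47 and 1.54 CPM) and lowered ARHGEF17, with 10 targets not called (25.7% called, 13.9% higher and 11.8% lower). Block9del raised none and lowered CRIM1 and ARHGEF17 (25.2% called, 12.8% higher and 12.4% lower), with ANKRD1 at 0.543 and 0.435 CPM. Only 1 of those calls was left without empty vector replicate 3 or 4 or without Block9del replicate 2.

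These 3 ARID1B deletions could be compared within the set. Against A457_G461del, Block13del was lower in 10 of 12 targets (20% of all genes called, 10.2% lower) and Block9del in 11 of 12 (31.6% called, 16.4% lower). In Block9del 6 targets fell at least 2-fold (3.21% of all genes). ANKRD1 differed by -1.18 ± 0.16 in Block13del and -2.78 ± 0.20 in Block9del, CYR61 (28.7 and 29.9, then 20.4 and 18.6 CPM) by -1.01 ± 0.06 and -1.59 ± 0.06, and NUAK2 by -1.01 ± 0.27 and -1.62 ± 0.29. Block13del stood above Block9del for 5 targets, ANKRD1 (1.60 ± 0.25), CTGF (0.67 ± 0.16), CYR61 (0.59 ± 0.06), CRIM1 and AJUBA, in a comparison where 1.25% of all genes were called, 1.18% as higher. That count fell to 3 without either library of Block13del or without Block9del replicate 1. Among the parts LATS2 (0.31 ± 0.06) and AMOTL2 (0.27 ± 0.06) were higher in Block13del, and 1, 1 and 0 parts were called without those libraries. With only these groups in the fit, 3 targets were called. The order of the targets, A457_G461del over Block13del over Block9del, is also the order of ARID1B CPM in these groups. That count does not measure construct RNA by itself. The summed epithelial markers had the same order, at 25.8 to 26.1, 16.5 to 17.8 and 12.99 to 13.5 CPM, and the part of either in the result was not tested.

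AQGscram and 42YS changed few targets against both pairs. In AQGscram AXL rose (7.34 and 7.98 CPM; 1.31 ± 0.13 and 1.11 ± 0.14 against the respective pairs) and MYOF fell (71.7 and 56.4 CPM; -1.34 ± 0.07 and -0.46 ± 0.07), with 15.4% of all genes called, 7.21% higher and 8.22% lower. In 42YS only ARHGEF17 was called, as lower (49.4 and 52.9 CPM; 22% of all genes called, 11% lower). CYR61 was at 19.2 and 21.1 CPM in AQGscram and 18.7 and 19.2 CPM in 42YS, levels below replicates 1 and 2 and above replicates 3 and 4 of the empty vector. The AQGscram libraries differed from each other far more than those of any other group, with a chi-square per gene of 30.4 against 1.18 to 4.97. Without AQGscram replicate 1 the targets called rose from 2 to 4 and the parts from 3 to 5. AXL (1.38 and 1.25) and MYOF (-1.50 and -1.17) kept their calls without replicate 1 and without replicate 2. Directly against AQGscram, 42YS had higher MYOF and ASAP1 and lower AXL (-1.26 ± 0.13), AJUBA and ARHGEF17 (38.1% of all genes called, 19.3% higher and 18.8% lower). With only these groups in the fit the called targets dropped from 5 to 3, and the called parts from 12 to 2.

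Of the 21 pathway parts, those higher and lower than the own pair numbered 10 and 6 in ARID1A WT (29.9% higher and 30.8% lower of all genes), 7 and 4 in DBDmut (30% and 29.1%), 5 and 5 in delIDR1 (25.2% and 31.1%) and 4 and 5 in CBR (28.7% and 30.8%). The counts in the truncations were near the shares of all genes. They were 16 and 1 in the DDX4 hybrid (26.1% and 24.4%), 13 and 2 in ARID1B WT (23.6% and 28.5%) and 11 and 3 in M2 (25.4% and 27.7%). At least 2-fold rises were fewer than among the targets, from 0 parts in CBR (7.14% of all genes) to 6 in M2 (7.86%). In the DDX4 hybrid the called parts fell from 17 to 11 with the 4 empty vector libraries as 1 control.

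Of the coactivators, WWTR1 rose in 5 and YAP1 in 2 of the 7 constructs set against their own pair. In set 3, WWTR1 was higher than each pair in A457_G461del (0.64 and 1.11) and Block13del (0.19 and 0.66), and YAP1 was not called. WWTR1 was at 263.9 and 262.0 CPM in ARID1A WT and at 109.8 and 107.1 CPM in the control pair (1.28 ± 0.05, adjusted p = 4.16e-17). It rose also in DBDmut (1.06), the DDX4 hybrid (0.76), ARID1B WT (1.28) and M2 (1.15), but not in delIDR1 (0.06 ± 0.05), and it fell slightly in CBR (-0.15 ± 0.05), a change of opposite sign, 0.07, with the 4 empty vector libraries as 1 control. YAP1 was at 202.3 and 200.6 CPM in ARID1A WT against 234.5 and 234.0 CPM, a small fall (-0.22 ± 0.07, adjusted p = 0.00633) that became 0.07 with all 4 controls. YAP1 rose in the DDX4 hybrid (0.49 ± 0.07, adjusted p = 1.17e-06) and in ARID1B WT (0.22 ± 0.07, adjusted p = 0.00878) and was not called in the other 4. With the 4 empty vector libraries as 1 control the call in the hybrid was lost (0.12) and the value in ARID1B WT became -0.15. Per kilobase of exon, YAP1 stood at 37.2 and WWTR1 at 12.9 CPM in empty vector replicates 1 and 2, and at 32.0 and 31.3 CPM in ARID1A WT.

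No TEAD factor changed 2-fold in any own-pair comparison. Per kilobase, TEAD2 (79.0 CPM) and TEAD1 (57.3 CPM) were the most abundant in empty vector replicates 1 and 2, with TEAD4 at 13.7 and TEAD3 at 13.5 CPM. TEAD1 fell in both truncations, from 584.1 and 594.5 CPM to 344.8 and 353.3 CPM in CBR (-0.76 ± 0.10, adjusted p = 5.08e-07) and 365.3 and 363.9 CPM in delIDR1 (-0.69 ± 0.10), and was not called in ARID1A WT (-0.07 ± 0.10) or DBDmut. TEAD3 rose in CBR (0.48), delIDR1 (0.41), the DDX4 hybrid (0.31), ARID1B WT (0.42) and M2 (0.55). TEAD4 fell most in ARID1B WT (-0.68 ± 0.08, adjusted p = 1.02e-07), and M2 stood above ARID1B WT (0.74 ± 0.08). In AQGscram TEAD1 was at 377.1 and 240.1 CPM and lower than each pair (-0.93 ± 0.10 and -0.42 ± 0.10), with -1.28 and -0.64 against replicates 1 and 2 when AQGscram replicate 1 or 2 was left out. TEAD2 was slightly lower than each pair in 42YS, A457_G461del, Block13del and Block9del, by -0.21 to -0.43 against replicates 1 and 2.

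In the kinase core, LATS2 and LATS1 went opposite ways in 6 of the 7 own-pair comparisons. LATS2 rose in all 7 own-pair comparisons, from 0.39 in delIDR1 to 1.54 in M2, where it was at 121.3 and 119.4 CPM against 40.6 and 42.0 CPM. LATS1 fell in 6 of them, with -0.54 ± 0.09 in ARID1A WT and -0.70 ± 0.09 in delIDR1, and rose in the DDX4 hybrid (0.55 ± 0.09). STK3, the MST2 kinase gene, rose against the own pair in the 5 constructs other than the truncations, by 0.38 to 0.81. In AQGscram STK3 was called as higher (0.42 ± 0.07 and 0.25 ± 0.07 against the pairs), a call lost without AQGscram replicate 1. STK3 was also higher than each pair in A457_G461del (0.52 and 0.35) and Block13del (0.43 and 0.25). Against A457_G461del, LATS2 was lower in Block13del (-0.56 ± 0.05) and Block9del (-0.88 ± 0.05). The kinase partners MOB1A and MOB1B, the scaffold SAV1 and STK4 changed by at most 0.63 in either direction against the own pair. LATS2 and AMOTL2 are themselves described as targets of YAP and TEAD, although the list holds them among the parts.

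Upstream, NF2, which encodes the tumour suppressor merlin that recruits LATS kinases to the membrane, had the largest fold change in ARID1A WT among parts with reads in the control. It was at 258.3 and 252.7 CPM in ARID1A WT against 70.8 and 70.0 CPM (1.86 ± 0.05, adjusted p = 9.59e-21). It rose in all 7 own-pair comparisons, with 0.81 in CBR and 0.87 in delIDR1 the smallest, and in set 3 it rose against both pairs in AQGscram, A457_G461del and Block13del. WWC1 (KIBRA), a partner of merlin, rose in ARID1A WT (1.48 ± 0.12) and was not called in CBR or delIDR1. FRMD6, a FERM domain gene upstream of the kinases, fell in CBR (-0.68 ± 0.06) and delIDR1 (-0.73 ± 0.06), and by less in DBDmut (-0.23), ARID1A WT (-0.18) and M2 (-0.17), and it rose in the DDX4 hybrid (0.38 ± 0.06, adjusted p = 1.73e-05). The calls in DBDmut, ARID1A WT and the hybrid were lost with the 4 empty vector libraries as 1 control. Against ARID1A WT, NF2 was lower in both truncations (-1.05 and -0.99) and WWTR1 too (-1.43 and -1.22), whereas in DBDmut NF2 was not called (-0.10 ± 0.05) and WWTR1 was lower by -0.21.

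Of the genes whose proteins restrain YAP or TEAD, AMOTL1 had 0 reads in every empty vector library. With 52 reads in ARID1A WT, 45 in M2, 16 in ARID1B WT and 12 in delIDR1, it was at least 19.99-fold, 10.3-fold, 4.5-fold and 3.92-fold higher in these groups, again as counting bounds over 3 reads. AMOT, AMOTL1 and AMOTL2 encode the angiomotins, which bind YAP1 and hold it at junctions and actin. AMOT rose in ARID1A WT (1.34 ± 0.16) and less in ARID1B WT (0.85), DBDmut (0.70) and M2 (0.47). AMOTL2 rose by 1.58 ± 0.06 in M2, 1.06 in ARID1B WT and 0.77 in the DDX4 hybrid, but by 0.20 in ARID1A WT. The response of AMOTL2 was lower in ARID1A WT than in ARID1B WT (-0.86 ± 0.08). The difference became 0.22 with all 4 empty vector libraries as control, which cancels out and leaves the constructs compared across strand sets. PTPN14, a phosphatase gene whose product binds YAP1, rose by 0.47 to 0.69 in ARID1A WT, the DDX4 hybrid, ARID1B WT and M2. VGLL4, whose product competes with YAP1 for TEAD, changed by at most 0.41 in size against the own pair. In set 3 it was lower than replicates 1 and 2 in all 5 constructs, by -0.42 to -0.63, but not lower than replicates 3 and 4 in any, and the pairs themselves differed by -0.69.

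**Figure D4:**
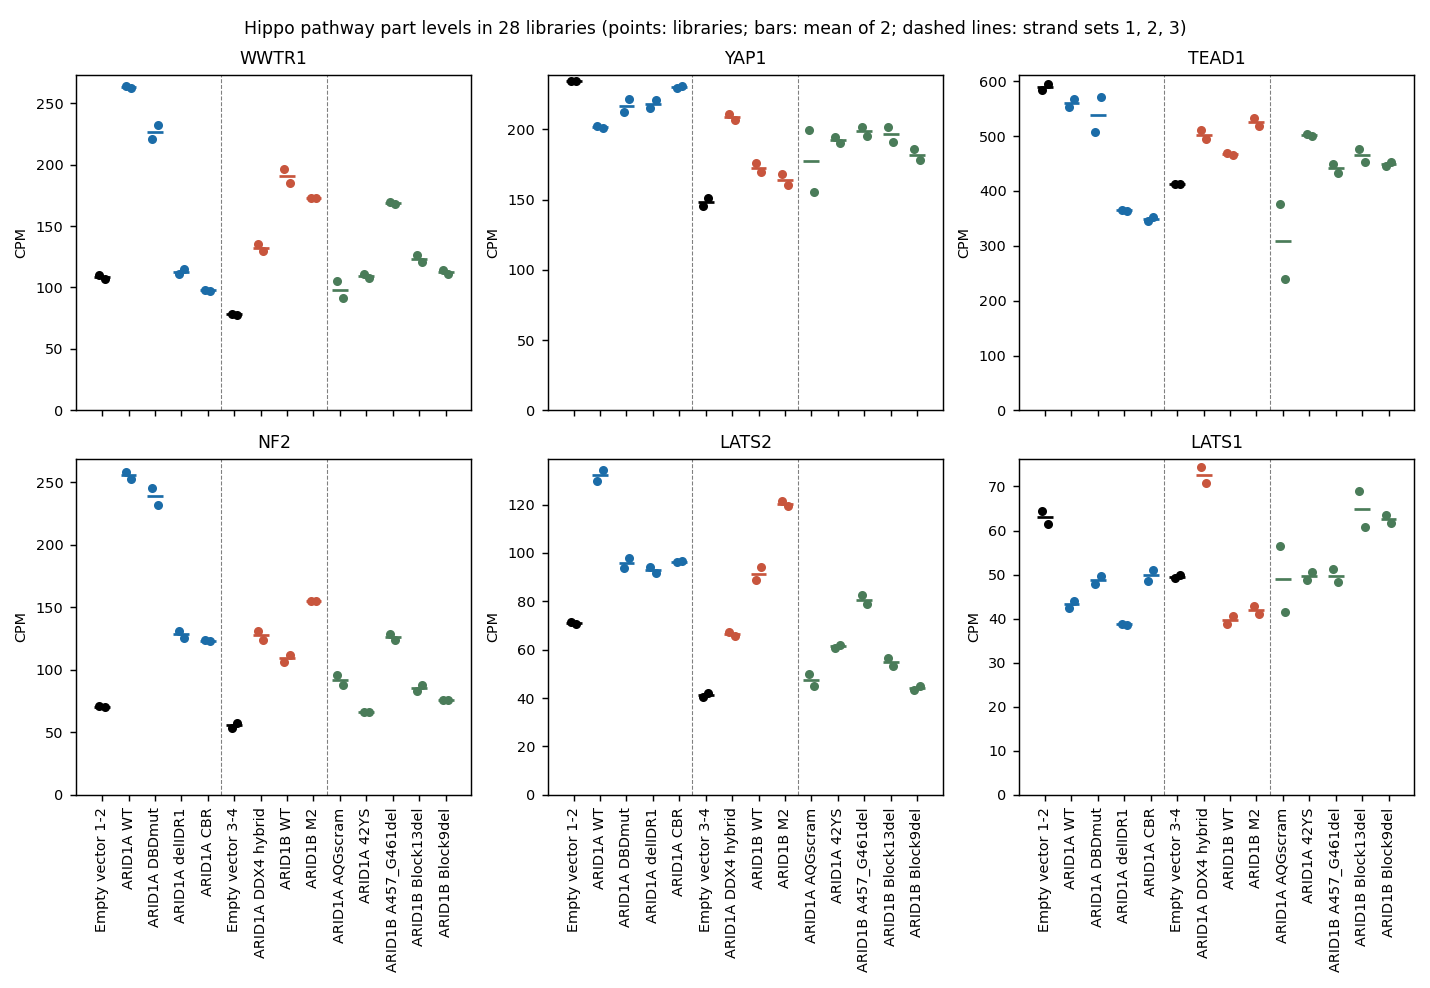
Levels of 6 pathway parts in CPM in each library, with groups ordered by strand set, empty vector pairs in black and bars for means of 2 libraries. WWTR1, NF2 and LATS2 are higher in ARID1A WT and ARID1B WT than in their controls, and LATS1 is lower.

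The other genes of the pathway and other reported TEAD targets were counted as separate lists. Among 31 tested further pathway genes, ARID1A WT had 11 higher and 10 lower (median 0.06), near the 29.9% and 30.8% of all genes, and ARID1B WT 14 higher and 4 lower (median 0.13), against 23.6% and 28.5% of all genes. Among the further genes with the smallest p in ARID1A WT were TNIK, FAT4 and MAP4K3, with log2 fold changes of 1.95, 1.45 and 0.85. Of 10 tested further TEAD targets, 5 rose and 3 fell in ARID1A WT, with THBS1 rising by 2.94 ± 0.06 (1165 against 151.4 CPM, group means), IGFBP3 by 1.89 and TGFB2 by 1.72. The genes named in ARID1B WT by the same rule were FAT4, MAP4K3, TNIK and TAOK3 among pathway genes (2.12, 0.94, 0.73 and 0.56) and THBS1, CCDC80, TGFB2 and BIRC5 among targets (3.64, 1.56, 1.23 and -0.68). Of these 10 further targets, 1 rose and 6 fell in CBR (28.7% higher and 30.8% lower of all genes), 2 rose and 6 fell in delIDR1 (25.2% and 31.1%), 7 rose and 2 fell in ARID1B WT (23.6% and 28.5%), and 8 rose and none fell in M2 (25.4% and 27.7%). With the same shares of all genes for ARID1A WT and ARID1B WT, 3 of 14 immediate early genes rose and 7 fell in ARID1A WT, with JUN at 1.18, EGR1 at -1.10, MYC at -0.72 and IER2 at -0.65, and 3 rose and 4 fell in ARID1B WT, with MYC at -1.15, JUN at 1.63, EGR1 at -0.96 and DUSP1 at 0.86.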

How the data were processed

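Counts per gene were deposited by the authors for each library, with the unstranded count and the counts on each strand. The column for the opposite strand was used. Per the submitters' processing notes the build is hg19 and the tools are bcl2fastq, STAR 2.5.2b and Bowtie2 2.29, with no roles given. Lines of totals hold no gene and were left out (21.6% to 36.3% of reads).

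One edgeR 4.0.16 quasi-likelihood fit (TMM, filterByExpr) was made over 28 libraries in 14 groups, with the empty vector split into replicates 1 to 2 and 3 to 4. Of 26346 symbols 14220 were tested, with Benjamini-Hochberg adjustment over all of them and a call at adjusted p under 0.05. In simulated data for ARID1A WT against its pair (14220 genes), changes were placed only in genes with a mean of at least 1 CPM. Of genes changed by 1.5-fold 78% were recovered, and of those changed by 2, 4 or 8-fold 100%. The simulation held no difference between strand sets and took the spread from the trend over genes. It does not cover genes of few reads. Exon lengths came from GENCODE v29 and promoter windows from RefSeq, where 28 of 36 members have an entry. All 36 members were described or counted, and from the other lists up to 4 called genes of smallest p in ARID1A WT and in ARID1B WT against the own pair, some of which are not reported here. Members, lists and strand sets were chosen with earlier results of these data known. Alternatives covered the control, RLE size factors, filters, DESeq2 1.42.0, strand, samples in the fit, a replicate block and leaving out each library. A floor of 3 reads was used for a gene at 0.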

Additional observations from a re-analysis of the deposited data

Results flagged for a closer look

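DLC1, a target with too few reads to test, had 1 read in empty vector replicate 4 and 0 in the other 3 empty vector libraries. The gap of the highest library to the others thus made up a share of 1 of the group's range of values, above Dixon's 95% limit for a group of 4. Chance flags about 1 group in 20 under that limit. For a gene with a read in only 1 library of the group the share is always 1, so that rate does not apply. A single read carries no information on expression.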

How the results depend on the processing

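Depth limits F3, DLC1, RBMS3, NT5E and AMOTL1, whose values rest on few reads, and with 2 libraries a group each call rests on the spread shared across the fit. The third strand set has no empty vector of its own. Replicate numbers did not pair libraries (correlations of same-numbered deviations -0.05 to 0.07), and the replicate block left all 24 counts within 1.5 times. Of the gene results, 395 were rated as unchanged and 1 was newly called, and no call was lost or reversed. A sign change of a gene not called in the main fit was not counted here.

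With the 4 empty vector libraries as 1 control, called targets became 6 in the DDX4 hybrid, 6 in AQGscram, 3 in 42YS, 5 in Block13del and 4 in Block9del. Called parts became 11, 5, 3, 8 and 7 in the same order. In comparisons of responses this control cancels out, which leaves constructs of different strand sets compared directly. There 5 parts differed between ARID1A WT and ARID1B WT, and 12 targets between the DDX4 hybrid and ARID1A WT. With RLE size factors Block9del had 1 target called, and with DESeq2 1 target and 1 part. Without a filter on low counts 42YS had 2 parts and Block9del 1. Ignoring strand gave 4 targets in AQGscram. Fitting only the groups compared gave 1 part in AQGscram and 2 in 42YS, 3 targets and 2 parts for 42YS against AQGscram, and 3 targets and 0 parts for Block13del against Block9del. The causes were not tested. Leaving out 1 library gave 2 to 4 targets and 2 to 5 parts in AQGscram, 1 to 2 parts in 42YS, 1 to 2 targets and 1 to 2 parts in Block9del, 4 to 7 parts for DBDmut against ARID1A WT, 6 to 8 for M2 against ARID1B WT, and 3 to 4 targets and 0 to 2 parts for Block13del against Block9del. The libraries behind these shifts were AQGscram replicate 1, 42YS replicate 1, Block9del replicates 1 and 2, Block13del replicates 1 and 2, empty vector replicates 3 and 4, DBDmut replicate 1 and ARID1B WT replicate 2.

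Sign changes were counted only for values called in the main fit. All 25 values that changed sign did so with the 4 empty vector libraries as 1 control. Against the control these were YAP1 0.073 in ARID1A WT; WWTR1 0.066 in ARID1A CBR; VGLL4 0.12, CTGF 0.18, MYOF 0.13 in ARID1A delIDR1; VGLL4 -0.16, CTGF -0.042, SAV1 -0.012 in ARID1A DDX4 hybrid; YAP1 -0.15, SAV1 -0.057 in ARID1B WT. For the ARID1A WT response minus the ARID1B WT response they were CYR61 1.25, VGLL4 0.34, AMOTL2 0.22, MOB1B 0.12, TEAD3 0.014, CTGF 1.07, MYOF 0.14, YAP1 0.22, LATS2 0.53, AJUBA 0.26. For the ARID1A DDX4 hybrid response minus the ARID1A WT response they were CYR61 -1.57, AMOTL2 -0.51, TEAD3 -0.12, CTGF -2.05, TEAD1 -0.16. In both response comparisons the single control cancels out, so those values are direct differences between constructs of different strand sets. The alternatives changed no direction of a target in ARID1A WT, DBDmut, ARID1B WT or M2 against the empty vector.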
